A study of Mus musculus with 6 samples.

Results

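The histone genes of the mouse histone clusters were followed in lacrimal gland RNA of AQP5-/- and AQP5+/+ mice. They were taken as every gene of the deposited mRNA table whose symbol is Hist, a digit and h (Hist1h, Hist2h, Hist3h and Hist4h genes) and whose level was above 0 in at least 1 library. This gave 66 genes of 22564 in the table. Of the 68 genes with such a symbol, Hist1h1t and Hist1h2aa were listed at 0 in all 6 libraries and fell outside. Just inside lay Hist1h2ba, with 0.244 FPKM in AQP5+/+ replicate 2 and 0 in the other libraries, the sole member seen in 1 library. FPKM, the level used throughout, is the number of fragments scaled to transcript length and library size as Cuffdiff gave it. Since these levels chose the members, being detected is no result here.

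There were 3 AQP5-/- libraries, from C57BL/6 mice aged 6 months that lack the water channel aquaporin 5 and were made with CRISPR/Cas9 in fertilized eggs, and 3 AQP5+/+ libraries from wild-type C57BL/6 mice of the same age. The mutation is carried by the whole animal and not by the gland alone, and no other allele or treatment is named for either genotype. The study describes the mRNA profile as that of as many mice as there are libraries, while the labels do not tie a library to an animal, and p-values here measure the spread between libraries. Ribosomal RNA was removed from total RNA before sequencing, with no selection for poly(A) tails. Values of 3 libraries are given in the order of replicates 1, 2 and 3.

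Histones package DNA into nucleosomes, in which H2A, H2B, H3 and H4 form the core and H1 binds the linker. Most genes of the clusters have no introns and are switched on when DNA is copied, and their mRNA ends in a stem-loop bound by the protein SLBP instead of a poly(A) tail. Such mRNA is lost when RNA is selected by its poly(A) tail and stays in RNA freed of rRNA, and some cluster genes, among them Hist1h1c, Hist1h2bc and Hist2h2be, also give polyadenylated mRNA in cells that no longer divide. The lacrimal gland is mainly secretory acinar epithelium, which divides little in the adult.

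The libraries held 11244579 to 13723180 estimated fragments and 14555 to 15096 genes above 0. Aqp5 was at 0.378, 0.177 and 0.170 FPKM in AQP5-/- glands, against 154, 89.0 and 142 FPKM in AQP5+/+ glands, as the labels require. All 6 listed markers of the lacrimal acinar cell were detected in every library, with Pip, a secreted protein of the gland, at 22150 FPKM or more in each. Of these markers Lyz2, a lysozyme that macrophages also make, was past the threshold given below, higher at 70.2, 115 and 157 FPKM in AQP5-/- glands, against 31.6, 43.3 and 69.1 FPKM in AQP5+/+ glands (log2 fold change 1.24, limma adjusted p = 0.431), without overlap. Some libraries stood apart. The 4 Y-linked genes listed, Uty, Ddx3y, Kdm5d and Eif2s3y, summed to 49.7, 58.0 and 52.1 FPKM in AQP5-/- glands, against 0.320, 33.0 and 0.185 FPKM in AQP5+/+ glands, so that AQP5+/+ replicates 1 and 3 were nearly without Y-linked transcripts. In AQP5+/+ replicate 2 the genes differed: Uty and Ddx3y (16.7 and 11.4 FPKM) lay near their AQP5-/- levels. Kdm5d was at 2.82 FPKM, against 3.26 FPKM or more in AQP5-/- glands, and Eif2s3y at 2.04 FPKM, against 17.8 FPKM or more. The labels do not give the sex. The 6 skeletal muscle markers listed, led by Acta1 and Tnnt3, summed to 54.8 FPKM in AQP5+/+ replicate 2 and to at most 2.05 FPKM in any other library. The salivary gland gene Spt1 was listed at 88894, 72882 and 85287 FPKM in AQP5-/- glands and at 0 in all AQP5+/+ glands. The further salivary genes Smr3a and Amy1 were high in AQP5-/- replicate 1 (4072 and 2351 FPKM) and to a lesser degree in AQP5+/+ replicate 2 (400.1 and 119 FPKM). In every other library, also those with Spt1, both were at 5.07 FPKM or less. The remaining salivary genes listed did not follow them: Smr2 was at 0 in all 6 libraries and Prol1 at 1.11 FPKM or less. The 8 measured lymphocyte and plasma cell markers summed to 38.9, 47.6 and 24.7 FPKM in AQP5-/- glands, against 10.9, 29.6 and 23.8 FPKM in AQP5+/+ glands. The part of other cells in the histone levels was not tested. In whole glands, fewer cells of a type and less RNA per cell cannot be told apart.

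The 66 genes comprised 5 of H1, 18 of H2A, 18 of H2B, 12 of H3 and 13 of H4. In RefSeq (GRCm38.p6) 53 lie on chromosome 13 (Hist1), 10 on chromosome 3 (Hist2), 2 on chromosome 11 (Hist3) and 1 on chromosome 6 (Hist4), and RefSeq lists 1 of them, Hist1h2al, as a pseudogene. All 5 classes were represented in every library. Of the 66, 55 were above 0 in all 6 libraries. Their levels spanned a wide range: 4 genes had a mean over 50 FPKM, 13 lay from 10 to 50, 36 from 1 to 10, 3 from 0.5 to 1 and 10 under 0.5 FPKM. Copies of a core histone class can be near-identical, and the sources used here do not tell how reads were divided between copies, so the share of each such copy is uncertain. Cuffdiff also joined neighbouring genes: 13 Hist1 members shared a single locus of 17 genes in the table, and all 10 Hist2 members a locus of 26.

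**Figure D1:**
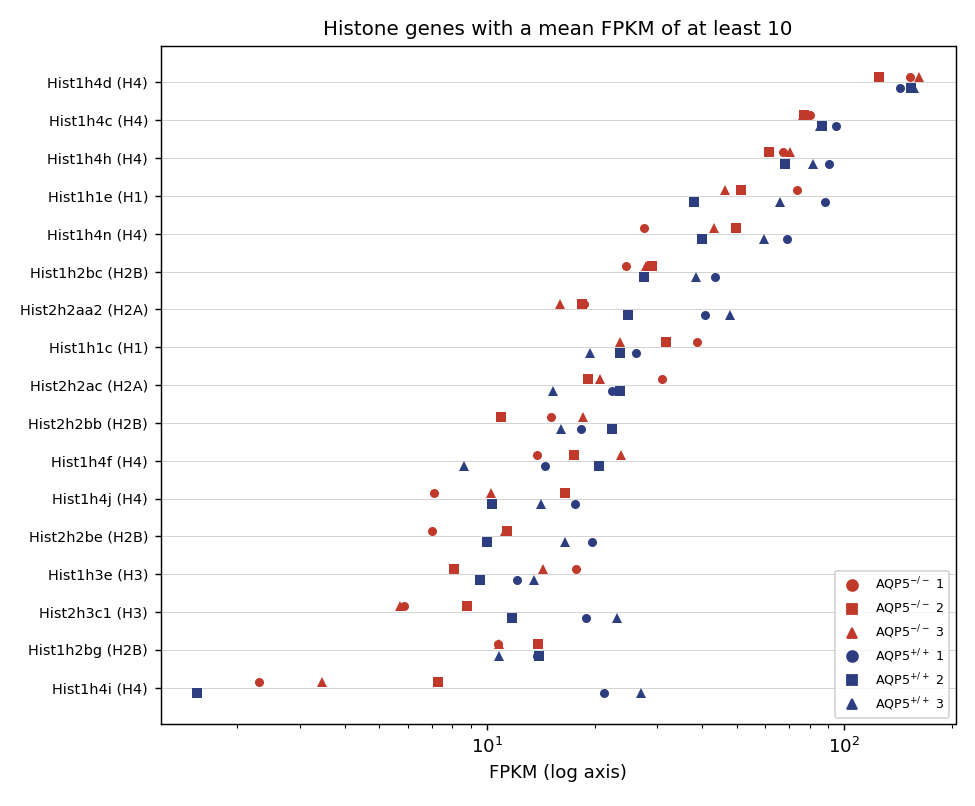
FPKM on a log axis of the 17 histone genes with a mean of at least 10 FPKM, highest at the top, with the class in brackets. Red marks are AQP5-/- libraries and blue marks AQP5+/+ libraries, with circle, square and triangle for replicates 1, 2 and 3. Hist1h4d stood highest in every library, and Hist1h4i at the bottom spread most widely, with 2 blue marks above 20 FPKM and 1 at 1.54 FPKM.

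Genes of H4, the core histone with the fewest sequence forms, led the list. Hist1h4d reached 153, 125 and 162 FPKM in AQP5-/- glands, against 144, 154 and 157 FPKM in AQP5+/+ glands. It stood above 98.3% of the tested genes by mean FPKM and was the highest histone gene in all 6 libraries. Hist1h4c followed with 79.9, 77.2 and 76.4 FPKM in AQP5-/- glands, against 94.5, 86.8 and 85.8 FPKM in AQP5+/+ glands. Its groups did not overlap, but they lay close, with a log2 fold change of -0.19 (SE 0.12, limma adjusted p = 0.496). Hist1h4h had 67.3, 61.6 and 70.5 FPKM in AQP5-/- glands, against 90.6, 68.3 and 82.0 FPKM in AQP5+/+ glands, and these groups overlapped. The genes next to each other in this order differed by more than their spread between libraries at the top, where Hist1h4d lay clear of Hist1h4c, but Hist1h4c and Hist1h4h overlapped.

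Of the linker histones, Hist1h1e was highest, with 73.9, 51.2 and 46.5 FPKM in AQP5-/- glands, against 88.5, 37.9 and 66.2 FPKM in AQP5+/+ glands. Both its highest and its lowest library were AQP5+/+. Hist1h1c had 38.7, 31.7 and 23.6 FPKM in AQP5-/- glands, against 26.2, 23.5 and 19.5 FPKM in AQP5+/+ glands, with overlap. Hist1h1d, Hist1h1b and Hist1h1a stayed at means of 3.58, 1.78 and 1.71 FPKM. Among H2A genes Hist2h2aa2 (mean 27.8 FPKM) and Hist2h2ac (22.0 FPKM) led, among H2B genes Hist1h2bc (31.8 FPKM) and Hist2h2bb (16.9 FPKM), and among H3 genes Hist1h3e (12.6 FPKM) and Hist2h3c1 (12.4 FPKM). On the FPKM scale no H3 gene reached the level of the 3 leading H4 genes. The testis histones were at or near the detection limit, as given above for Hist1h1t, Hist1h2aa and Hist1h2ba.

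The scale changes the order. The number of fragments behind 1 FPKM differed between members: it stood for 3.82 estimated fragments in Hist1h4d, 26.4 in Hist1h1c and 70.5 in Hist1h1d, and did not follow the length of the gene alone, since Hist1h1e (782 bases in RefSeq) had 10.7 and Hist1h1d (776 bases) 70.5. By mean estimated fragments Hist1h1c was first with 719, followed by Hist1h1e with 647, Hist2h2be with 592 and Hist1h4d with 568. The H3 gene Hist2h3c1, with 383 fragments, lay close to Hist1h4h with 396.5 and above Hist1h4c with 322. The H4 genes together made 55.6% of the summed histone FPKM but 31.6% of the fragments, and the H1 genes 12.3% and 23.4%. The 4 genes over 50 FPKM made 47.3% of the summed FPKM and 27.4% of the fragments.

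Many members rested on few fragments. Those with a mean from 1 to 10 FPKM had means of 7 to 380 estimated fragments, and their coefficient of variation between libraries of 1 genotype had a median of 39.1% in AQP5-/- and 39.3% in AQP5+/+ glands. The 17 genes of 10 FPKM and more had 63.2 to 719 fragments and medians of 25.6% in AQP5-/- and 22.3% in AQP5+/+ glands. Hist1h4c was the steadiest of these in AQP5-/- glands, at 2.36%, and Hist1h4i the least steady in both genotypes, at 60.2% in AQP5-/- and 80.4% in AQP5+/+ glands.

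The genotypes were then compared for every gene with limma on log2(FPKM + 0.5), for the 11772 genes with a mean of at least 0.5 FPKM over all 6 libraries. The threshold of the study's methods was applied: a change of 2-fold or more with p under 0.05 before adjustment. Of the 66 histone genes 56 could be tested. Past the threshold were 3 of them, all lower in AQP5-/- glands (5.36%), Hist2h3c1, Hist2h2aa2 and Hist1h2ag, beside 0.883% of all genes tested in that direction, and 0 were higher, beside 1.16%. In either direction the background was 2.04%. Hist1h2ag reached the filter only through its AQP5+/+ mean, and among genes with a mean of at least 0.5 FPKM in both genotypes, a restriction chosen after seeing the data, 2 of 55 histone genes were past the threshold as lower (3.64%), beside 0.642% of all such genes. After Benjamini-Hochberg adjustment over all genes, limma called 0 histone genes, beside 0.017% of all genes (2 of 11772), and edgeR on estimated fragments called 0 as well. DESeq2 on the same fragments called 2 of the 56, Hist2h3c1 and Hist2h2aa2, both lower, among 149 of all 11772 genes. Past the threshold as lower, edgeR put 1 histone gene, Hist2h3c1 (1.79%), beside 1.37% of all genes. DESeq2 put 2 there, Hist2h3c1 and Hist1h4i (3.57%), beside 1.43%. Both tools put 0 histone genes past the threshold as higher. At p under 0.05 before adjustment, whatever the fold, limma put 7 histone genes lower (12.5%), beside 8.12%, and 1 higher (1.79%), beside 3.27%. The 56 had a median log2 fold change of -0.19, beside -0.12 over all genes, and 35 lay below 0 (62.5%), beside 67.0%. Most histone genes therefore lay where other genes lay. The groups did not overlap in 9 members lower in AQP5-/- glands (16.1%), beside 11.1%, and in 1 member higher (1.79%), beside 3.86%.

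**Figure D2:**
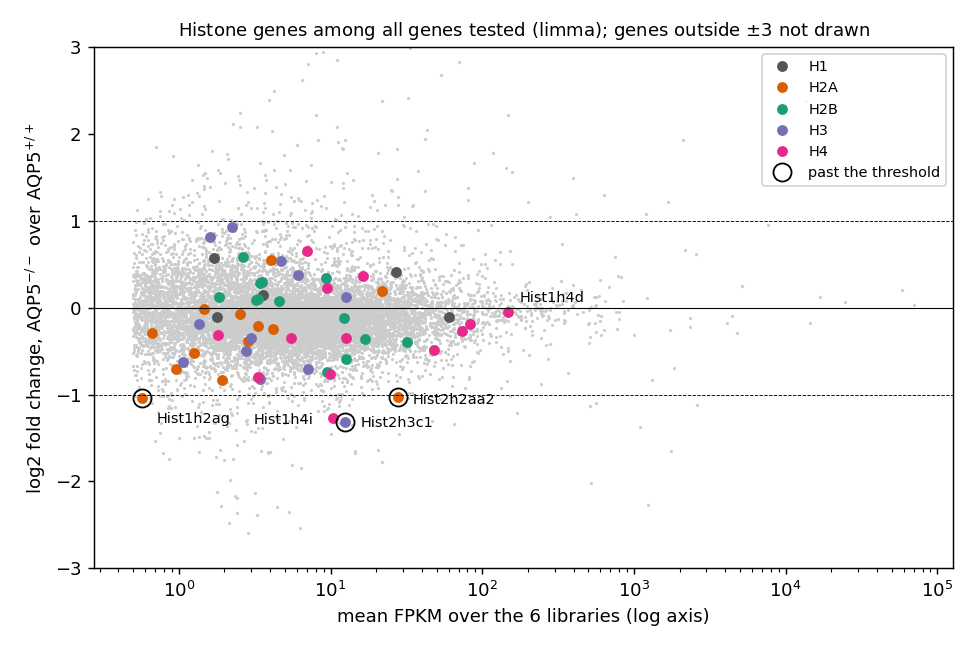
Log2 fold change of AQP5-/- over AQP5+/+ glands (limma) against mean FPKM on a log axis, in grey for the genes tested (11772, of which those beyond the axis limits are not drawn) and in colour by class for the 56 histone genes. Dashed lines mark a fold of 2, and rings mark the 3 histone genes past the threshold, all below 0. Most other histone genes lay within the grey cloud, whose median was -0.12.

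Hist2h3c1, an H3 gene of the chromosome 3 cluster (chr3:96246685-96247348, plus strand), was at 5.87, 8.81 and 5.70 FPKM in AQP5-/- glands, against 18.9, 11.8 and 23.2 FPKM in AQP5+/+ glands. All AQP5-/- libraries lay below all AQP5+/+ libraries, and AQP5+/+ replicate 2 lay nearest to them. The log2 fold change was -1.31 (SE 0.27, limma adjusted p = 0.431). Its copy Hist2h3c2 (chr3:96238479-96239127, minus strand) had 4.25, 6.86 and 4.56 FPKM in AQP5-/- glands, against 10.1, 6.03 and 10.7 FPKM in AQP5+/+ glands. The groups of Hist2h3c2 overlapped, with AQP5+/+ replicate 2 inside the span of the AQP5-/- libraries, and the log2 fold change of -0.71 (SE 0.26, limma adjusted p = 0.431) stayed under the fold of 2. Together the copies summed to 10.1, 15.7 and 10.3 FPKM in AQP5-/- glands, against 29.0, 17.8 and 33.8 FPKM in AQP5+/+ glands, a ratio of means of 0.447 that sets aside how reads were divided between the pair.

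Hist2h3c1 and Hist2h3c2 are shown to make plain how alike such copies are also outside the transcript. Their 300-base RefSeq windows (GRCm38.p6, 250 bases before to 50 after the start) lie at chr3:96246435-96246734, plus strand and at chr3:96239078-96239377, minus strand. The windows are offset by 15 bases, and over the 285 bases they share 284 were the same (99.65%). Capitals mark CCAAT or its reverse complement ATTGG, the box bound by the factor NF-Y.
Hist2h3c1: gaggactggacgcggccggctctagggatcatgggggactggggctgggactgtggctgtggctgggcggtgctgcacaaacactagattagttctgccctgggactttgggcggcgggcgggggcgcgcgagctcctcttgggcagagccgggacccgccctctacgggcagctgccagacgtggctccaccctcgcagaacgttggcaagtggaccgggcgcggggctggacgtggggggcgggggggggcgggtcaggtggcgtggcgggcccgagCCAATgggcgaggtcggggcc
Hist2h3c2: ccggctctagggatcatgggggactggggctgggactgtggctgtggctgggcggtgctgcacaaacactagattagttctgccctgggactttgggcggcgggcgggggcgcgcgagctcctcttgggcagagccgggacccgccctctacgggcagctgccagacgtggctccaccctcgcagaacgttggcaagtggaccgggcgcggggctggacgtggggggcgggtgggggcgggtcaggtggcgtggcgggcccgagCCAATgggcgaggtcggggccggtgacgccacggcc

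Hist2h2aa2, an H2A gene beside them (chr3:96239779-96240374, minus strand), was at 18.7, 18.4 and 16.0 FPKM in AQP5-/- glands, against 40.8, 24.8 and 48.0 FPKM in AQP5+/+ glands. The AQP5-/- libraries lay within a narrow range below every AQP5+/+ library. The log2 fold change was -1.03 (SE 0.23, limma adjusted p = 0.431), just past a fold of 2. The copy Hist2h2aa1 had 1.95, 4.30 and 2.85 FPKM in AQP5-/- glands, against 5.14, 3.05 and 2.53 FPKM in AQP5+/+ glands, and a log2 fold change of -0.21 (SE 0.32). The windows of these copies were the same at 249 of 260 shared bases (95.8%). The pair summed to 20.7, 22.7 and 18.8 FPKM in AQP5-/- glands, against 46.0, 27.9 and 50.5 FPKM in AQP5+/+ glands, a ratio of means of 0.5004. The window of Hist2h2aa2 (chr3:96240325-96240624, minus strand), the second gene past the threshold, holds CCAAT in both orientations, in capitals, around the start.
Hist2h2aa2: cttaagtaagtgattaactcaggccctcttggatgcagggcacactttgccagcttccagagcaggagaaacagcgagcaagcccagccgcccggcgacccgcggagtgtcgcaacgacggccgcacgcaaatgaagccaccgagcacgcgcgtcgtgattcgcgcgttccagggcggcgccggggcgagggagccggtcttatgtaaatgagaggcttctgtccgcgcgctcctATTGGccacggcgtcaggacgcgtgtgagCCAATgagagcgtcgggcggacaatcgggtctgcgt

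Hist1h2ag, an H2A gene on chromosome 13, was at 0, 0.222 and 0.345 FPKM in AQP5-/- glands, against 0.832, 1.56 and 0.456 FPKM in AQP5+/+ glands (log2 fold change -1.03, SE 0.36, limma adjusted p = 0.431). It rested on a mean of 3.17 estimated fragments and entered the test only through its AQP5+/+ mean of 0.950 FPKM, with an AQP5-/- mean of 0.189 FPKM. A gene that passes the filter in this way had to differ.

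The calls depended on the libraries and on the processing. Of 18 other settings, Hist2h3c1 stayed past the threshold in 17 and Hist2h2aa2 in 10. Hist1h2ag did so in 11, but it passed the filter of 0.5 FPKM only through its AQP5+/+ mean. Its calls at that filter, here and below, are therefore no support. The log2 fold change of Hist2h2aa2 fell short of a fold of 2 when AQP5-/- replicate 3 was left out (-0.96), and likewise for AQP5+/+ replicate 1 (-0.95) and 3 (-0.83). It did so with all libraries under edgeR (-0.97), DESeq2 (-0.97), median centring (-0.89) and quantile normalization (-0.93). That of Hist1h2ag did so when AQP5-/- replicate 1 (-0.82) or AQP5+/+ replicate 2 (-0.75) was left out, and under a pseudocount of 1 (-0.69), median centring (-0.90) and array weights (-0.72), while edgeR and DESeq2 gave it p over 0.05 before adjustment. Without AQP5+/+ replicate 2, the library with muscle transcripts, 657 genes passed (5.58%) in place of 240, and 7 histone genes passed (12.5%), with Hist2h3c1, Hist2h2aa2, Hist2h4, Hist1h2be and Hist1h4i lower and Hist1h3a and Hist1h3b higher. Without AQP5-/- replicate 2, 5 histone genes passed, all lower (8.93%), beside 110 of all genes lower (0.934%). Without AQP5+/+ replicate 1, 81 genes passed (0.688%), 2 of them histone genes (3.57%), and without AQP5+/+ replicate 3, 125 passed (1.06%), 3 of them histone genes (5.36%). With a term for Y-linked transcripts, which leaves AQP5+/+ replicate 2 as the only wild-type library set against the AQP5-/- libraries, Hist2h3c1 had a log2 fold change of -0.77 and Hist2h2aa2 of -0.48, both short of the fold of 2, and 5 histone genes passed as lower (8.93%), Hist1h2ab, Hist1h2ag, Hist1h3c, Hist1h3g and Hist1h4a, beside 45 of all genes lower (0.382%). Genotype and Y-linked transcripts can be told apart only through that library.

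The other 6 genes of the Hist2 cluster were not past the threshold. Hist2h4, an H4 gene, was at 5.94, 8.72 and 6.68 FPKM in AQP5-/- glands, against 11.7, 8.42 and 18.4 FPKM in AQP5+/+ glands (log2 fold change -0.76, SE 0.28, limma adjusted p = 0.431). Hist2h2be, an H2B gene with a long polyadenylated form, had 7.01, 11.4 and 11.2 FPKM in AQP5-/- glands, against 19.6, 10.03 and 16.5 FPKM in AQP5+/+ glands (log2 fold change -0.59, SE 0.28, limma adjusted p = 0.437). In both, AQP5+/+ replicate 2 lay within the AQP5-/- range. Hist2h2ac, the H2A partner that starts 192 bases from Hist2h2be on the other strand, had 30.8, 19.1 and 20.7 FPKM in AQP5-/- glands, against 22.4, 23.6 and 15.3 FPKM in AQP5+/+ glands, and a log2 fold change of 0.19 (SE 0.23). Hist2h3b, the third H3 gene of the cluster, had 8.80, 5.84 and 2.60 FPKM in AQP5-/- glands, against 4.87, 4.09 and 1.93 FPKM in AQP5+/+ glands, and a log2 fold change of 0.54 (SE 0.44), the highest of the 10. It thus lay on the other side of 0 from Hist2h3c1 and Hist2h3c2, with wide overlap. The H2B gene Hist2h2bb had a log2 fold change of -0.35 (SE 0.21) and the H2A gene Hist2h2ab of -0.01 (SE 0.42). Summed over its 10 members, the cluster had 101, 94.9 and 90.4 FPKM in AQP5-/- glands, against 154, 115 and 154 FPKM in AQP5+/+ glands (95.5 ± 5.33 against 141 ± 22.2 FPKM, SD, n = 3 each), a ratio of 0.677. All AQP5-/- sums lay below all AQP5+/+ sums. The 53 Hist1 members had a ratio of 0.903, with 609, 615 and 628 FPKM in AQP5-/- glands, against 749, 634 and 667 FPKM in AQP5+/+ glands. No test was made of a sum, or of the difference between the clusters.

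Over all 66 genes the FPKM summed to 715, 715 and 724 in AQP5-/- glands (718 ± 4.99, SD, n = 3), against 910, 754 and 828 in AQP5+/+ glands (831 ± 77.9, SD, n = 3). The ratio of means was 0.864. AQP5-/- glands were close to each other and below every AQP5+/+ gland, while the AQP5+/+ glands spread widely, with replicate 1 on top. A lower level in AQP5-/- glands and the place of AQP5+/+ replicate 1 were not particular to histone genes. Of all genes tested, 67.0% had a log2 fold change below 0, beside 62.5% of histone genes. Every AQP5-/- library lay below every AQP5+/+ library in 11.1% of all genes tested and 16.1% of histone genes. How close the AQP5-/- libraries lay to each other was not compared with other genes. AQP5+/+ replicate 1 was the highest library of 34.1% of all genes tested and of 23.2% of histone genes. Its FPKM over all genes summed to 385631, against 747563 or more in each other library. In fragments per 1000000 estimated fragments of the library the sums were 501, 489 and 488 in AQP5-/- glands, against 873, 558 and 604 in AQP5+/+ glands, with a ratio of 0.726. This scale uses the raw total of each library, which holds Spt1 in AQP5-/- but not in AQP5+/+ glands. With edgeR, which adjusts for library composition, the median log2 fold change was -0.13 over histone genes and 0.00 over all genes. The part of library composition in the ratio was not tested. By class, the ratio of summed FPKM was 0.742 for H2A, 0.801 for H3, 0.844 for H2B, 0.868 for H4 and 1.03 for H1. Most of the H2A and H3 gaps lay in a single gene each, both past the threshold. Hist2h2aa2 had means of 17.7 FPKM in AQP5-/- and 37.9 FPKM in AQP5+/+ glands, beside mean H2A sums of 63.8 and 86.0 FPKM. Hist2h3c1 had means of 6.79 and 17.9 FPKM, beside mean H3 sums of 51.9 and 64.8 FPKM. For H2A the sums were 68.6, 65.1 and 57.7 FPKM in AQP5-/- glands, against 91.3, 82.5 and 84.2 FPKM in AQP5+/+ glands, without overlap. The H1 sums overlapped fully, at 119, 92.3 and 77.4 FPKM in AQP5-/- glands, against 122, 67.8 and 91.2 FPKM in AQP5+/+ glands.

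**Figure D3:**
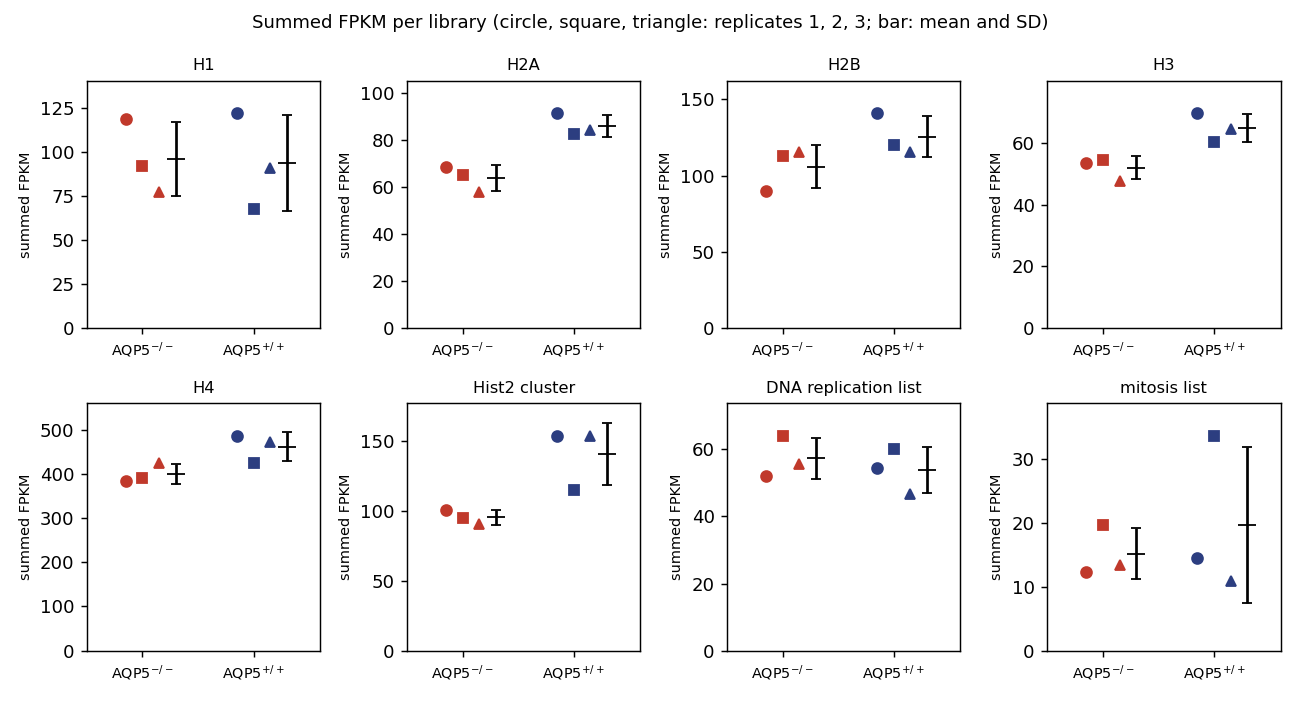
Summed FPKM per library of each histone class, of the Hist2 cluster and of the DNA replication and mitosis lists, with AQP5-/- in red and AQP5+/+ in blue, circle, square and triangle for replicates 1, 2 and 3, and a bar for mean and SD (n = 3). H2A, H3 and the Hist2 cluster were lower in every AQP5-/- library than in any AQP5+/+ library, and the mitosis list was highest in AQP5+/+ replicate 2 at 33.6 FPKM. Most of the H2A gap lay in Hist2h2aa2 and most of the H3 gap in Hist2h3c1.

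A set of members followed the AQP5+/+ libraries without Y-linked transcripts. In 13 of the 56 tested genes (23.2%), AQP5+/+ replicates 1 and 3 both lay above the other 4 libraries, which is below the 35.6% of all genes tested. The set held 5 of the 10 Hist2 genes (Hist2h2aa2, Hist2h2be, Hist2h3c1, Hist2h3c2 and Hist2h4) and 6 of the 44 tested Hist1 genes. Hist1h4i, an H4 gene picked after its values were seen, showed it most widely, with 2.30, 7.30 and 3.46 FPKM in AQP5-/- glands, against 21.2, 1.54 and 27.0 FPKM in AQP5+/+ glands. AQP5+/+ replicate 2 was its lowest library of all, and its log2 fold change of -1.27 had an SE of 0.92 (limma adjusted p = 0.546). Hist1h2be, an H2B gene, had 6.71, 7.37 and 6.45 FPKM in AQP5-/- glands, against 14.0, 7.72 and 15.0 FPKM in AQP5+/+ glands (log2 fold change -0.74, SE 0.24, limma adjusted p = 0.431). Hist1h2bc had 24.4, 29.0 and 27.9 FPKM in AQP5-/- glands, against 43.3, 27.5 and 38.3 FPKM in AQP5+/+ glands (log2 fold change -0.40, SE 0.18, limma adjusted p = 0.434). In 6 genes (10.7%, beside 8.02%) the same pair of libraries lay below the other 4.

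The windows of Hist1h4i (chr13:22041313-22041612, minus strand) and Hist1h4d (chr13:23581318-23581617, plus strand) are shown because they belong to the least and one of the more even genes of the same class. Capitals mark TATAA or its reverse complement TTATA, the core of the TATA box, and CCAAT or ATTGG. Both genes carry TATAA just upstream of the start, 31 bases before it in Hist1h4i and 32 in Hist1h4d.
Hist1h4i: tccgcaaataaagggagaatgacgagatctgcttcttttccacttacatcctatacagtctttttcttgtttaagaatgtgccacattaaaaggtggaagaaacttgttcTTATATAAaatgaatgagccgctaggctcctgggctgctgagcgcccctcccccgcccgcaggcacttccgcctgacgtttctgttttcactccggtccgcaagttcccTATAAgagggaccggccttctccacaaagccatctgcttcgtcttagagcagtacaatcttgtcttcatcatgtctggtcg
Hist1h4d: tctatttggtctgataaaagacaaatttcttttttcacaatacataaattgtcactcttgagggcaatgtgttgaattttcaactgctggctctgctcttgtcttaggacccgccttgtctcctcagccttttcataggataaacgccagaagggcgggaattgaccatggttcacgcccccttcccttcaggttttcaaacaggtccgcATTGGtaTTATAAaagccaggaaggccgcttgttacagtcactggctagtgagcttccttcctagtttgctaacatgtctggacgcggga

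**Figure D4:**
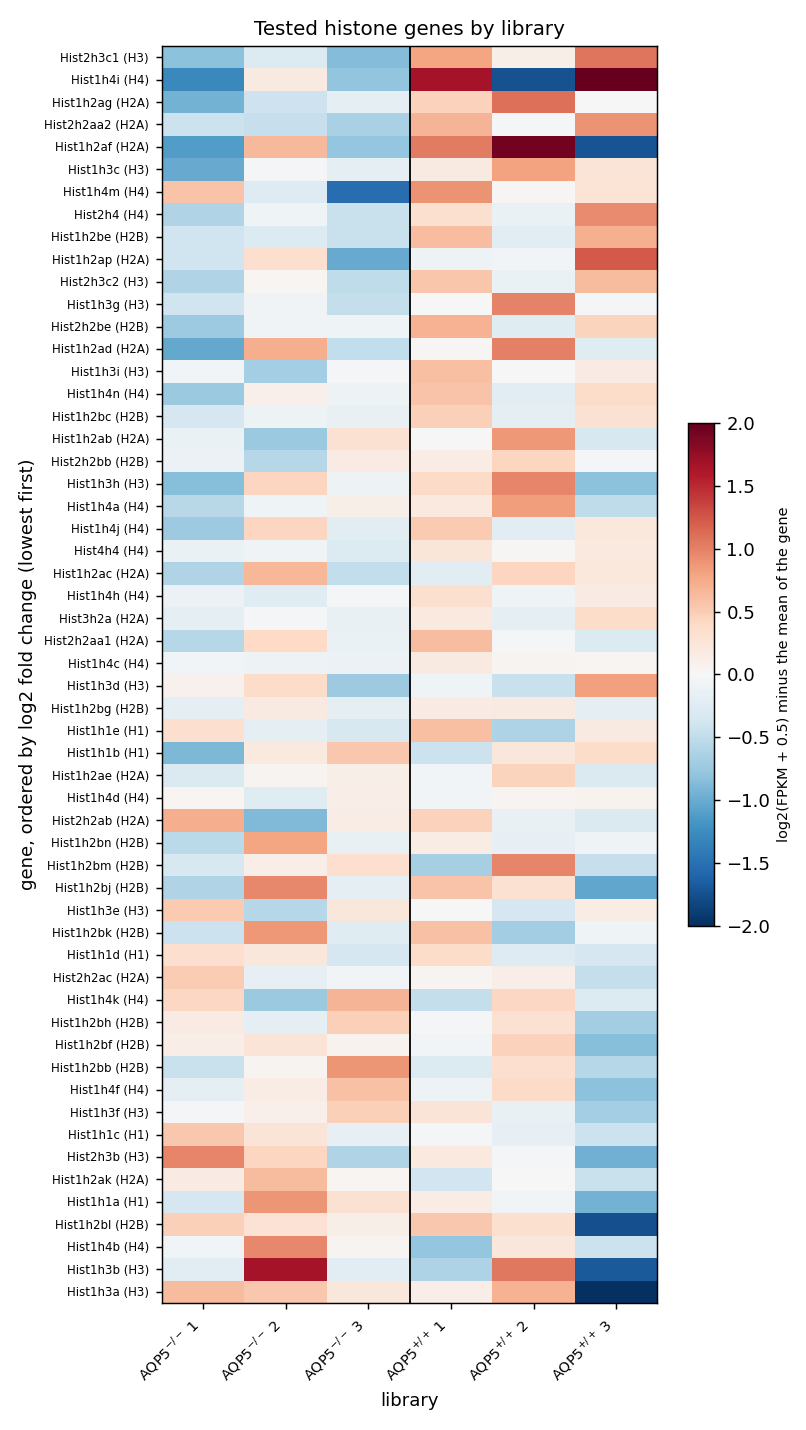
Log2(FPKM + 0.5) of the 56 tested histone genes in each library, minus the mean of the gene over the 6 libraries, with genes ordered by log2 fold change from lowest at the top. AQP5-/- libraries stand left of the line and AQP5+/+ libraries right of it, red is above and blue below the mean. AQP5+/+ replicate 2 was the highest library of 14 genes and AQP5+/+ replicate 3 the lowest of 15.

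Other members followed AQP5+/+ replicate 2. It was the highest library of 14 tested histone genes (25.0%), beside 6.35% of all genes, and AQP5+/+ replicate 3 was the lowest of 15 (26.8%), beside 11.5%. Hist1h3c, an H3 gene, had 1.32, 3.07 and 2.70 FPKM in AQP5-/- glands, against 3.63, 5.86 and 3.88 FPKM in AQP5+/+ glands (log2 fold change -0.82, SE 0.30, limma adjusted p = 0.431). Its groups did not overlap. It was the sole gene of the H3 class outside the Hist2 cluster with p under 0.05 before adjustment. Hist1h2af and Hist1h3a were listed at 0 in AQP5+/+ replicate 3 and at 5.82 and 3.26 FPKM in AQP5+/+ replicate 2, both their highest values in any library.

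In the other direction, Hist1h2ak, an H2A gene named after its values were seen, was the sole member whose AQP5-/- libraries all lay above the AQP5+/+ libraries, with 4.46, 6.33 and 4.03 FPKM in AQP5-/- glands, against 2.90, 3.92 and 2.77 FPKM in AQP5+/+ glands. The log2 fold change was 0.55 (SE 0.22, limma adjusted p = 0.431). Its divergent partner Hist1h2bn, whose start lies 164 bases away, had a log2 fold change of 0.08 (SE 0.32). Hist1h4b had 6.22, 13.0 and 6.75 FPKM in AQP5-/- glands, against 3.57, 7.61 and 4.67 FPKM in AQP5+/+ glands, with overlap (log2 fold change 0.65, SE 0.34, limma adjusted p = 0.451).

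What these genes share beyond their names was read from the RefSeq windows, found for 60 of the 66. The octamer ATTTGCAT, the site of the POU factor OCT1, stood on either strand in 12 windows (20%), beside 1.75% of 27025 gene windows of the same length. These were 6 of 17 H2A and 6 of 16 H2B windows, and 0 of the H1, H3 and H4 windows. CCAAT on either strand stood in 51 windows (85.0%), beside 37.9%, and in all windows of H1, H2A, H2B and H3 but in 3 of 12 of H4. TATAA on either strand stood in 47 (78.3%), beside 25.5%, among them 11 of 12 of H4. The motifs can overlap (TTATATAA holds TTATA and TATAA). A total of 12 pairs of members start on opposite strands within 1000 bases of each other, 11 of them an H2A with an H2B gene 164 to 268 bases apart, so that their windows overlap and share motifs. Partners were not at 1 level: Hist1h2bc had a mean of 31.8 FPKM and its partner Hist1h2ac 0.663 FPKM, and Hist1h2bg had 12.3 FPKM and its partner Hist1h2ae 2.54 FPKM. The window of Hist1h2bg (chr13:23571150-23571449, plus strand) is shown as one that holds all 3 motifs, in capitals. A match is a run of letters and not a bound site.
Hist1h2bg: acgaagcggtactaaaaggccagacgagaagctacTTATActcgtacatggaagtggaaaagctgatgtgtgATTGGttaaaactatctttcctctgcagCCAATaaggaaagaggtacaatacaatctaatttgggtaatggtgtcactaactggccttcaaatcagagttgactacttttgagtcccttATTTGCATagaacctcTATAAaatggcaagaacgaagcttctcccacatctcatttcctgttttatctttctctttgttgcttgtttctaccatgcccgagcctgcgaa

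Genes that work with histones were set beside them. Of 14 tested genes of histone mRNA 3' end formation and turnover, 0 passed the threshold in either direction by limma, edgeR or DESeq2 (median log2 fold change -0.18), and by limma 2 were lower at p under 0.05 before adjustment, Cpsf4 and Upf1. Slbp, which binds the stem-loop, had 3.47, 5.10 and 5.63 FPKM in AQP5-/- glands, against 7.19, 5.74 and 6.17 FPKM in AQP5+/+ glands (log2 fold change -0.41, SE 0.20, limma adjusted p = 0.444). Cpsf4, a cleavage and polyadenylation subunit, had 4.08, 4.03 and 4.05 FPKM in AQP5-/- glands, against 6.98, 5.27 and 7.10 FPKM in AQP5+/+ glands (log2 fold change -0.60, limma adjusted p = 0.431), without overlap. Of 8 tested genes of histone gene transcription 0 passed by any of these tools, with 1 at p under 0.05 by limma, Cdk2. Npat, the co-activator of cluster genes, had 2.21, 2.59 and 2.11 FPKM in AQP5-/- glands, against 2.69, 1.59 and 3.02 FPKM in AQP5+/+ glands, and Cdk2, the kinase that acts on it, had a log2 fold change of -0.57 (limma adjusted p = 0.431).

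Of 20 tested DNA replication genes, 1 passed, Cdc45, a helicase component, which was higher at 4.15, 4.52 and 3.48 FPKM in AQP5-/- glands, against 0.703, 3.86 and 1.13 FPKM in AQP5+/+ glands (log2 fold change 1.147, limma adjusted p = 0.431). AQP5+/+ replicate 2 lay within the AQP5-/- range of Cdc45, and with the term for Y-linked transcripts the log2 fold change was 0.06. Cdc45 was not past the threshold without AQP5-/- replicate 1 (1.13) or 2 (1.07) or without AQP5+/+ replicate 1 (0.76) or 3 (0.98), nor by edgeR or DESeq2. The same held with a pseudocount of 1 and without the filter on mean FPKM. Pcna, the sliding clamp of replication, had 11.5, 13.3 and 13.4 FPKM in AQP5-/- glands, against 12.6, 11.2 and 9.67 FPKM in AQP5+/+ glands. Of 13 tested mitosis genes 0 passed by any of the 3 tools, 1 (Bub1b, lower) had p under 0.05 by limma, and 11 were highest in AQP5+/+ replicate 2, the library that was also highest for 14 histone genes. The mitosis list summed to 12.3, 19.7 and 13.5 FPKM in AQP5-/- glands, against 14.4, 33.6 and 10.9 FPKM in AQP5+/+ glands. Mki67, a marker of cycling cells, had 2.34, 4.48 and 2.39 FPKM in AQP5-/- glands, against 2.12, 4.45 and 1.397 FPKM in AQP5+/+ glands. The part of dividing cells in the histone levels was not tested.

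Histone variants made outside DNA replication are mostly read from polyadenylated mRNA. Of 11 tested, 0 passed the threshold by any of the 3 tools, and by limma 2 had p under 0.05, H3f3b (higher) and H2afy (lower). H3f3b, which encodes H3.3, had 252, 154 and 158 FPKM in AQP5-/- glands, against 124, 134 and 128 FPKM in AQP5+/+ glands, without overlap (log2 fold change 0.51, limma adjusted p = 0.431). H3f3a, which encodes the same protein, had a log2 fold change of 0.22 (limma adjusted p = 0.591), and H2afz, which encodes H2A.Z, of 0.03 (limma adjusted p = 0.950). H1f0, the linker histone of resting cells, had 42.5, 40.7 and 35.1 FPKM in AQP5-/- glands, against 43.5, 39.2 and 44.3 FPKM in AQP5+/+ glands. Of 16 tested histone chaperones 0 passed by any of the 3 tools and 0 had p under 0.05 by limma, with the smallest p at Rbbp7 (log2 fold change 0.55, limma adjusted p = 0.432), an X-linked gene. None of the 2541 circRNAs of the same libraries, with 14332 back-splice junction reads in all, came from a histone member. Since most genes of the clusters have no introns, this absence is no result here.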

How the data were processed

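The 3 AQP5-/- and 3 AQP5+/+ libraries were grouped by the genotype given in the sample labels. The authors' notes name cutadapt 1.9.3, HISAT2 2.0.4, Cufflinks and Cuffdiff 2.2.1 with the mm10 genome and no order. The authors deposited FPKM from Cuffdiff for each gene in every library. Beside them stand estimated counts that the authors scaled with a factor for each library. Dividing these by the commonest low value of each library gave estimated fragments, 92.7% to 93.3% of the low values being whole within 0.02. They were rounded for edgeR and DESeq2. The circRNA counts deposited by the authors, made with STAR 2.5.1b, are back-splice junction reads. The annotation version and the strand setting of the mRNA values are not stated there. For library preparation the labels and the study's methods name different kits, both stranded.

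FPKM were compared with limma 3.58.1 (lmFit and eBayes with trend, R 4.3.3) on log2(FPKM + 0.5), which understates the change of low genes, for genes with a mean of at least 0.5 FPKM. Adjusted p-values are Benjamini-Hochberg over all 11772 genes. Alternatives were edgeR 4.0.16 and DESeq2 1.42.0, other pseudocounts, filters, scalings and variance models, each library left out, a replicate block and a term for libraries with Y-linked transcripts. The method was tested on simulated data. The 11244579 to 13723180 estimated fragments per library set the precision, and genes of few fragments are the least certain.

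The members and gene lists were chosen with earlier results of these data known. Named are the 3 highest members of each class, the 2 of smallest p, members past the threshold, the testis and polyadenylated histones, and listed companion genes. Others were named after their values were seen. All 66 members matched RefSeq by gene number, and coordinates and sequences are those of RefSeq for GRCm38.p6, the build also called mm10.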

Additional observations from a re-analysis of the deposited data

How the results depend on the processing

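Of the 42 genes named by rule, 11 changed sign under at least 1 of 18 other settings, 32 changes in all. For 240 genes past the threshold in all, array weights gave 554, the term for Y-linked transcripts 104 and leaving out a library 81 to 657. In place of the 3 histone genes lower (5.36%, beside 0.883% of all genes), edgeR gave 1 lower (1.79%, beside 1.37%). Median centring also gave 1 lower (1.79%, beside 0.493%). Array weights gave 6, of them 1 higher and 5 lower (8.93% lower, beside 2.55%). Leaving out a library gave 2 to 7 (0 to 2 higher, 2 to 5 lower). These were 3.57% to 12.5% of histone genes, beside 0.688% to 5.58% of all genes. The summed ratio of 0.864 became 0.726 in fragments per 1000000 of the raw library total, and stayed from 0.826 to 0.907 without a library. The median over histone genes stayed below 0 under every setting run, but beside the median of all genes (-0.19 against -0.12 as deposited) it lay above with array weights (-0.10 against -0.17) and without AQP5+/+ replicate 2 (-0.08 against -0.20). The causes were not tested.

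The median of all genes was -0.12 as deposited and 0.01 with median centring, where 172 genes were higher and 58 lower in place of 136 and 104. With edgeR it was 0.00. The sign turned with edgeR, DESeq2 and median centring for Hist1h4d (0.022, 0.027 and 0.084), H1f0 (0.036, 0.040 and 0.033) and Npat (0.13, 0.13 and 0.10), for Npat also with quantile normalization (0.067), and for Hist1h1e with median centring (0.026). With the term for Y-linked transcripts it turned for Hist1h1e (0.56), Hist2h2ac (-0.034), Hist3h2a (0.077), Rbbp7 (-0.017), Npat (0.42), Mki67 (-0.52) and H1f0 (0.0034). Without a library the range crossed 0 for Hist1h1e (-0.45 to 0.16), Hist2h2ac (-0.012 to 0.33), Hist1h3e (-0.10 to 0.44), Hist1h4d (-0.13 to 0.057), Cdk1 (-0.77 to 0.015), Npat (-0.26 to 0.11), Mki67 (-0.066 to 0.63) and H2afz (-0.12 to 0.15).

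DESeq2 put 149 genes under an adjusted p of 0.05, against 2 by limma, with 516 under array weights and 917 once AQP5+/+ replicate 2 was left out. The replicate numbers did not pair the libraries: same-numbered deviations correlated at -0.14, -0.18 and -0.15. With the replicate block 286 genes passed, 3 of them histone genes. With 3 libraries a genotype and near-identical copies, a low member rests on a few fragments, and a difference within its spread was not detectable here.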
